A study of Mus musculus with 9 samples.

Results

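The brains of mice exposed to the lower of 2 concentrations of perfluorooctane sulfonate (PFOS) were compared with those of a comparison group, gene by gene. Group L drank water with 0.5 µg of PFOS per litre for 7.5 months, and group H, which entered here mainly through the shared estimate of spread, 50 µg per litre. Group C is the comparison group, whose labels give drinking water and no PFOS dose. The letters L and H were read as the low and the high concentration that the study describes. All were aged mice described as 24 months old and kept free of specific pathogens, with the brain perfused before collection, and the labels used here name no strain, sex or brain region. Each group held 3 libraries from total RNA, numbered 1 to 3. The labels do not say that the libraries came from separate animals, so the p-values rest on a spread between libraries that may be technical. Of 2996 genes in the table analysed here, the 2226 with over 1 FPKM in at least 3 of the 9 libraries were compared. FPKM is a level per length and depth, the reads of a gene over its length and over the library's total. Genes outside the table are not analysed here, and counts over a gene list cover its tested members alone.

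PFOS is a fluorinated surfactant that is hardly broken down and binds to proteins of blood and liver. It can activate peroxisome proliferator-activated receptors (PPARs), transcription factors of lipid metabolism that respond to fatty acids. In the brain, neurons work together with astrocytes, microglia and oligodendrocytes, and the vessels, with their endothelium, mural cells and extracellular matrix, form the blood-brain barrier. Gene lists for these cell types and for hormone, lipid, stress and synaptic pathways therefore order the results.

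Library totals, recovered from the FPKM values, were 16399627 to 19999722 reads in the L libraries and 15371513 to 19263869 in the C libraries, and a value of 3 reads on a transcript of 1 kb corresponds to 0.150 to 0.195 FPKM in them. Neuronal and astrocyte markers identified the tissue as brain, with Rbfox1 at 62.2 to 100.4 FPKM and Gfap at 54.3 to 154 in these 6 libraries. The erythroid gene Slc4a1 stayed at or under 0.417 FPKM and the summed level of 8 markers of immune cells other than microglia at or under 2.01. In what follows, 3 values of a group stand in the order of libraries 1 to 3. Regional markers separated single libraries rather than the groups. The mean level of 12 cerebellar markers, on the scale of log2(FPKM + 1) and centred over the 9 libraries, was 0.40, -0.79 and 1.36 in the L libraries and 2.85, -0.85 and -1.03 in the C libraries. For 6 pallial markers it was -0.01, 0.92 and -2.05 in the L libraries and -1.93, 0.75 and 0.78 in the C libraries, and for 4 striatal markers 1.87, -0.89 and -1.08 in the L libraries and -1.35, 0.70 and 0.99 in the C libraries. Among these 6 libraries C1 and L3 thus had the highest cerebellar and the lowest pallial marker levels, and L1 the highest striatal one. Every main result was also computed without C1 and L3.

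**Figure D1:**
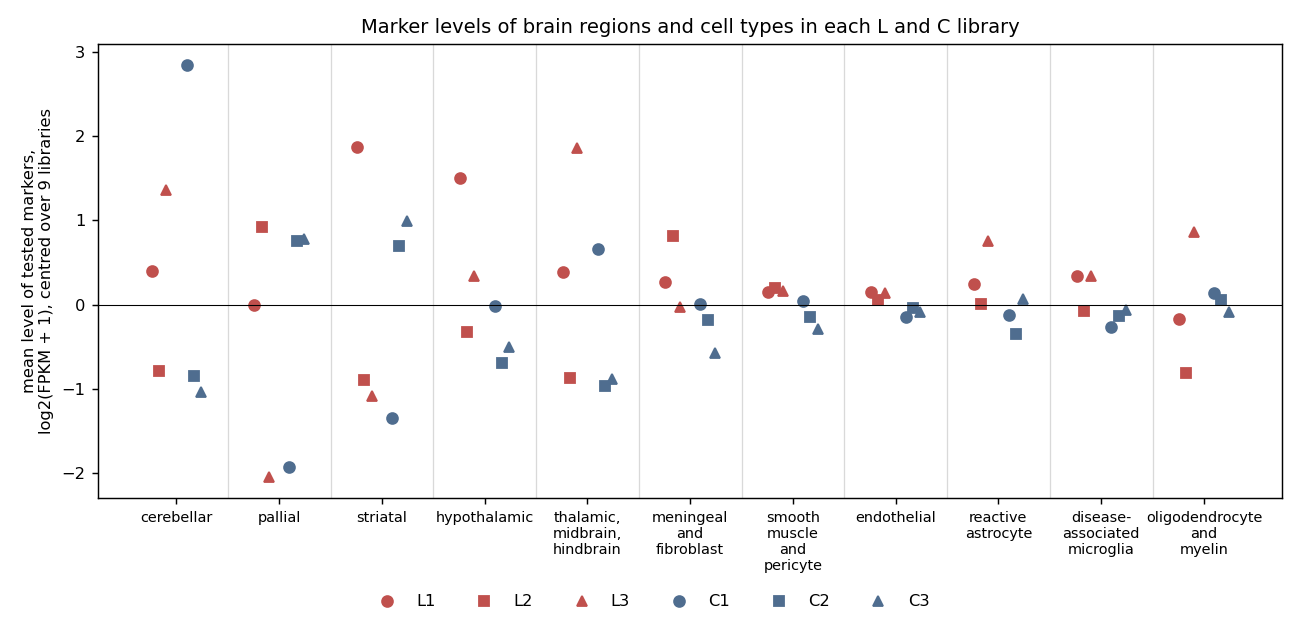
Mean level of the tested markers of brain regions and cell types in each L (red, left) and C (blue, right) library, on the scale of log2(FPKM + 1), centred over 9 libraries, with 1 symbol per library. Regional lists scatter over libraries of both groups, with C1 at 2.85 and L3 at 1.36 for the cerebellum, while the 3 L libraries lie above the 3 C libraries for the smooth muscle and endothelial lists.

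Genes of the vessel wall and the extracellular matrix, with the smooth muscle myosin Myh11, the laminin receptor Bcam and the fibulins Fbln1 and Fbln5, were among the genes with the smallest p-values and higher means in L, together with the arginine methyltransferase Prmt2 and the transcription factor Mafk. The insulin-signalling kinase Akt2, the oxysterol-binding protein Osbp2, the splicing regulator Rbfox1 and the Notch inhibitor Numb were among those with lower means. In each of these 10 genes all L libraries lay on one side of all C libraries. Still, no gene passed the test.

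The test was a linear model on log2(FPKM + 1) fitted to all 9 libraries with limma, and each difference below is the mean of L minus that of C on this log2 scale, with its standard error (SE). This scale understates the change of genes with low values. After Benjamini-Hochberg adjustment over 2226 genes, 0 genes (0%) lay under 0.05 in limma, and the lowest adjusted p was 0.962. An unadjusted p under 0.05 was reached by 87 genes (3.91%), fewer than the 111.3 that this threshold alone gives in 2226 genes. Of them 62 (2.79%) had higher and 25 (1.12%) lower means in L. Without overlap of the groups, that is with every L library above or below every C library, stood 148 genes (6.65%), 111 of them higher (4.99%) and 37 lower (1.66%). With 3 libraries against 3, random ordering alone gives a share of 0.1 without overlap, more than was seen. Over all tested genes 1254 (56.3%) had a higher mean in L, with a median difference of 0.03. The excess of higher calls depended on the scaling. With libraries scaled by the median of ratios, the genes at p under 0.05 split into 45 higher and 41 lower, with quantile normalization into 46 and 40, and with each library's trend over gene length removed into 38 and 41. Genes without overlap then split into 79 higher and 67 lower, 75 and 69, and 74 and 62. With upper quartile scaling the excess remained, at 69 higher and 23 lower genes at p under 0.05, and 122 and 34 without overlap. The count of 87 was 45 without L1, 161 without L2, 141 without C1 and 134 without C2. The count of 148 was larger without any single L or C library, at 238 to 456, since fewer libraries then have to stand apart. The median 95% confidence interval of a difference reached 0.45 to either side, or 1.36-fold. All 87 genes kept their direction without C1 and L3. Of them 67 had no overlap of the groups, and such genes cannot turn when L or C libraries are left out.

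**Figure D2:**
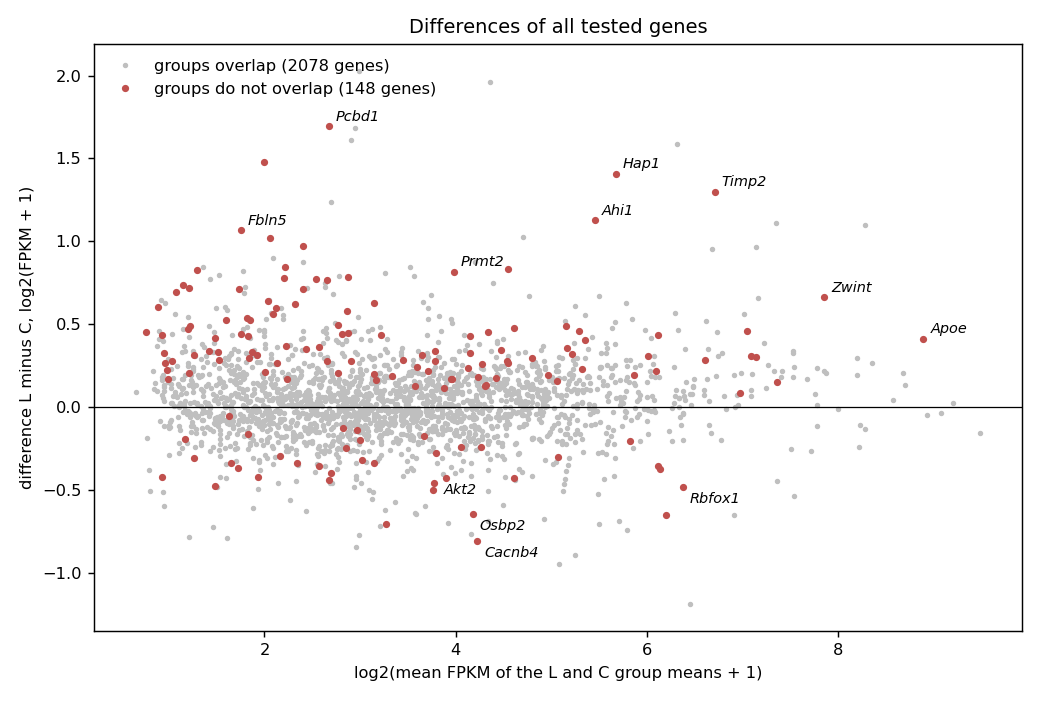
Difference of L minus C for each of the 2226 tested genes on the scale of log2(FPKM + 1) against the mean level of both groups, with red points for the 148 genes whose groups do not overlap and grey points for the others. Red points are 111 above and 37 below 0, and the 7 red points beyond a difference of 1 all lie above it.

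The promoters of the leading genes are shown since the results turn on these genes. Of the 5 genes with the smallest p-values, the 250 bases before the transcription start of Prmt2 (chr10:76237866-76238115, minus strand), Mafk (chr5:139791286-139791535, plus), Bcam (chr7:19770533-19770782, minus) and Osbp2 (chr11:3863904-3864153, minus) follow, 5′ to 3′ on the gene's own strand, from RefSeq on GRCm38.p6. For Osbp2 the start nearest to the gene's annotated end was taken from 3 starts in RefSeq. Capitals mark every match to 3 motifs searched on both strands, the CCAAT box (CCAAT), the E-box (CACGTG) bound by clock and Myc family factors, and the antioxidant response element (TGACNNNGC) bound by NRF2 with small Maf proteins such as Mafk.
Prmt2: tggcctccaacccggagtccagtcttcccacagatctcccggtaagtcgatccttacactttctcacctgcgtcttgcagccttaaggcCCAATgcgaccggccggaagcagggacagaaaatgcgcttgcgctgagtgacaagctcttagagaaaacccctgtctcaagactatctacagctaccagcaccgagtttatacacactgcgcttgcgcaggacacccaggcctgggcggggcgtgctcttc
Mafk: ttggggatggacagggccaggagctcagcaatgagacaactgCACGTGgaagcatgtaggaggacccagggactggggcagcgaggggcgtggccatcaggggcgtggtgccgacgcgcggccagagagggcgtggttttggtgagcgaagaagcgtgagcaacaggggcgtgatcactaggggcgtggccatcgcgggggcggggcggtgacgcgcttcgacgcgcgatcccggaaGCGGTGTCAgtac
Bcam: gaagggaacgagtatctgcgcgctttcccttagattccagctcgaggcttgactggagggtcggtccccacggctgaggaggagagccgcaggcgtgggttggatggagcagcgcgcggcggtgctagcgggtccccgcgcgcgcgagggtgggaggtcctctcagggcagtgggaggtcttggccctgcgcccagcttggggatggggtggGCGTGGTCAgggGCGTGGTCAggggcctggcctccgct
Osbp2: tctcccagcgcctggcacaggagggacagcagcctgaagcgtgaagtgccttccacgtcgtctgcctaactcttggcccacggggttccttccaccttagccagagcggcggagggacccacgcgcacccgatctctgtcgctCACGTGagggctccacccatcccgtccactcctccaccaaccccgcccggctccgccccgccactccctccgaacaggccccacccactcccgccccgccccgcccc
The Prmt2 window held 1 CCAAT box, 161 to 157 bases before the start. The Mafk window held an E-box at 208 to 203 and an antioxidant response element, GCGGTGTCA, at 13 to 5 bases before the start. The Bcam window held the same antioxidant response element letters, GCGTGGTCA, at 38 to 30 and at 26 to 18, and that of Osbp2 an E-box at 107 to 102. No match overlapped another. The starts are those of RefSeq. By the GENCODE M21 coordinates given below for these genes, the whole Bcam window lies within the gene. The last bases of the Mafk window, with its antioxidant response element, do so too. Of 32851 RefSeq promoter windows of the same length, 33.8% held a CCAAT box, 6.02% an E-box and 10.2% an antioxidant response element, so a match describes the sequence and shows no binding.

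Prmt2 (ENSMUSG00000020230, chromosome 10, 76207222 to 76237865, minus strand, GRCm38), which methylates arginines and acts as a coactivator of nuclear receptors, had the smallest p-value of all tested genes. It stood at 22.2, 19.6 and 15.7 FPKM in the L libraries and 8.62, 11.1 and 11.5 in the C libraries. The lowest L library lay above the highest C library, and the means were 19.2 ± 3.32 FPKM over the L and 10.4 ± 1.57 over the C libraries (SD, n = 3 each). The difference was 0.82 ± 0.16, at an unadjusted p of 0.0007103 and an adjusted p of 0.962 (limma), and it stayed between 0.70 and 0.95 with any single library left out. Mafk (ENSMUSG00000018143, chromosome 5, 139791513 to 139802653, plus strand), a small Maf protein that pairs with NRF2 and with BACH factors, stood at 4.299, 3.96 and 3.898 FPKM in the L libraries and 2.09, 2.45 and 2.78 in the C libraries. The 3 L libraries differed by less from each other than from any C library, and the difference was 0.56 ± 0.12. In H, which shares the C libraries as its comparison, Mafk stood at 4.14, 3.83 and 3.68 FPKM and Prmt2 at 15.4, 14.3 and 13.9.

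Pcbd1 (ENSMUSG00000020098, chromosome 10, 61089331 to 61094324, plus strand), which recycles the tetrahydrobiopterin cofactor of monoamine synthesis, had the largest difference among genes without overlap and a mean of at least 5 FPKM, 1.69 ± 0.46. It stood at 13.1, 3.49 and 10.3 FPKM in the L libraries and 1.64, 1.84 and 1.83 in the C libraries. The C libraries agreed closely, and the L libraries spread over 3.49 to 13.1 FPKM, with L1 highest. Ngb, the neuronal oxygen carrier neuroglobin, chosen after its values were seen, showed a like spread, at 9.77, 3.31 and 2.12 FPKM in the L libraries and 0.778, 0.753 and 1.13 in the C libraries. Zwint, a kinetochore protein, stood at 294, 268 and 279.9 FPKM in the L libraries and 123, 214 and 211 in the C libraries, a difference of 0.66 ± 0.21. The L libraries agreed closely, and C1 was the lowest library, without which the difference was 0.40. Atxn10, the gene of ataxin 10, stood at 149, 157 and 149 FPKM in the L libraries and 89.8, 129.9 and 114 in the C libraries, with C1 lowest again.

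Among the lower genes, Osbp2 (ENSMUSG00000020435, chromosome 11, 3703731 to 3863903, minus strand), a carrier of oxysterols and other lipids between membranes, stood at 13.3, 14.95 and 11.2 FPKM in the L libraries and 22.1, 20.5 and 20.6 in the C libraries. The groups lay well apart, with means of 13.2 ± 1.86 FPKM over the L and 21.1 ± 0.912 over the C libraries (SD, n = 3 each), a difference of -0.65 ± 0.14 and a range of -0.74 to -0.55 with any single library left out. Rbfox1, which steers neuronal splicing, stood at 72.4, 70.6 and 62.2 FPKM in the L libraries and 87.8, 100.1 and 100.4 in the C libraries, a difference of -0.48 ± 0.14. Every C library exceeded every L library, and without C1 and L3 the difference was -0.48. Numb, which sends Notch to the endosome, stood at 11.9, 9.19 and 10.6 FPKM in the L libraries and 14.8, 13.96 and 15.8 in the C libraries, a difference of -0.46 ± 0.15, or -0.47 without C1 and L3. Smaller but tight was Map7, which binds microtubules, at 12.1, 11.1 and 11.3 FPKM in the L libraries and 13.9, 13.97 and 14.7 in the C libraries, a difference of -0.28 ± 0.10. Septin8, a cytoskeletal filament protein, the ubiquitin ligase Rnf130 and Mxd1, a repressor at Myc sites, also lay lower in every L library, with differences of -0.38, -0.30 and -0.36. Kremen1, a receptor for Dickkopf inhibitors of Wnt, and the zinc finger gene Zfp287 did so with -0.42 and -0.37.

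**Figure D3:**
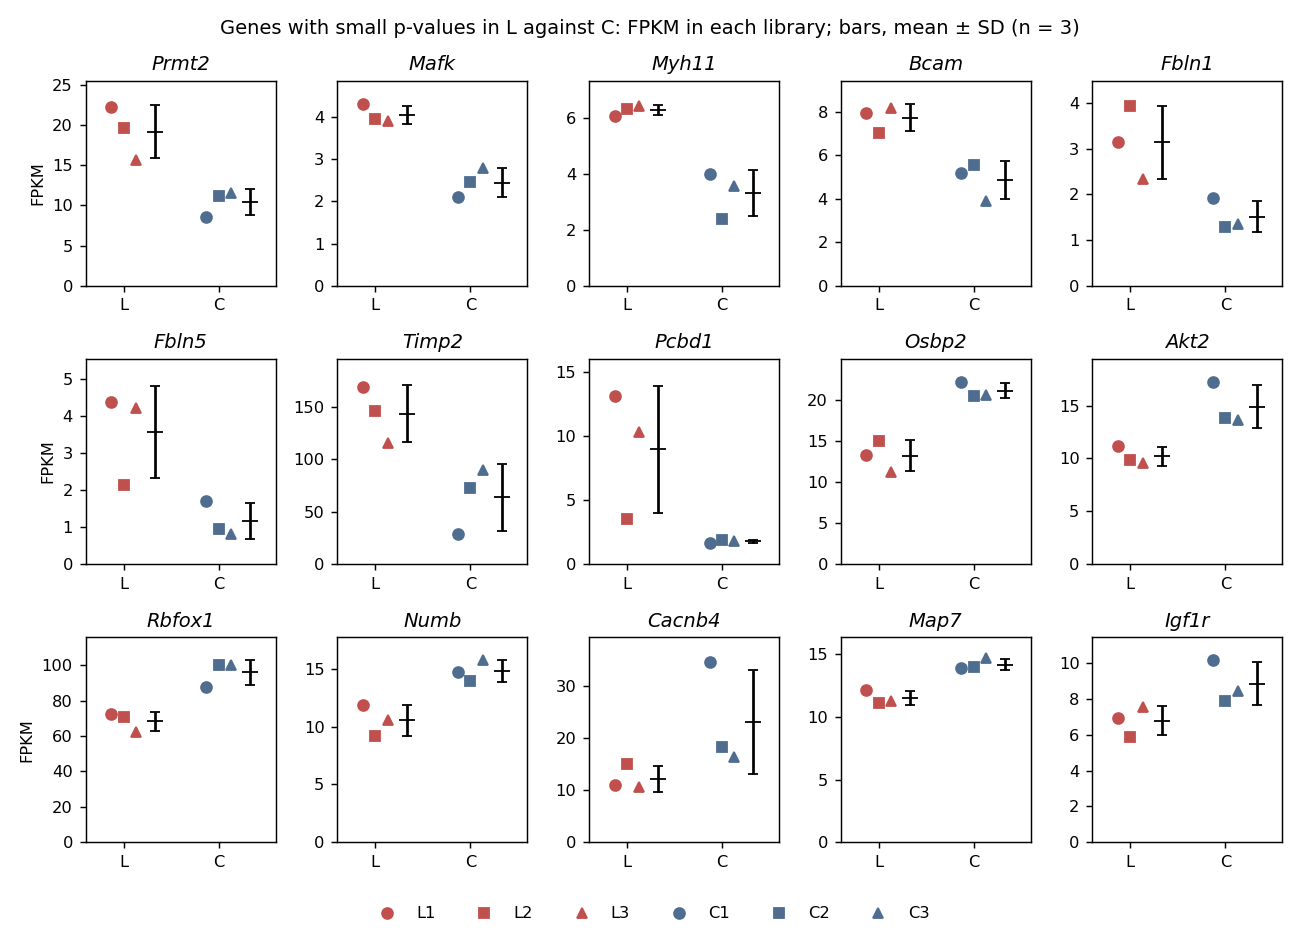
FPKM of 15 genes with small p-values in each L (red, left) and C (blue, right) library, with a symbol for each library number and a black bar for the mean ± SD of each group (n = 3). No panel shows overlap of the groups. The first 8 genes lie higher and the last 7 lower in L, and C1 stands apart from C2 and C3 in Timp2 and Cacnb4.

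Vessel and matrix genes had mostly higher means in L across their lists, without a single gene at an adjusted p under 0.05 in limma. Of 32 tested extracellular matrix genes, 25 had higher means in L and 7 lower, and 6 stood without overlap, all higher, beside 6.65% of all tested genes without overlap and 4.99% higher. Their median difference was 0.22, beside 0.03 for all tested genes. With median of ratios scaling, quantile normalization or the length trend removed, 22 to 24 members had higher means. Left-out libraries moved the median between 0.13 without L1 and 0.27 without L2. Fbln5, which assembles elastic fibres, stood at 4.38, 2.13 and 4.22 FPKM in the L libraries and 1.71, 0.954 and 0.8095 in the C libraries, a difference of 1.07 ± 0.29. Fbln1, another fibulin of basement membranes, stood at 3.14, 3.93 and 2.33 FPKM in the L libraries and 1.91, 1.28 and 1.34 in the C libraries, a difference of 0.71 ± 0.22. Both were lowest in C2 or C3, and every L library exceeded every C library. Timp2, an inhibitor of matrix metalloproteinases, stood at 169.7, 146 and 116 FPKM in the L libraries and 28.3, 72.9 and 89.9 in the C libraries, a difference of 1.30 ± 0.40. It was 0.81 without C1, the C library with the lowest value. Aebp1, a collagen-binding protein of connective tissue, stood at 7.14, 11.5 and 6.15 FPKM in the L libraries and 6.12, 4.22 and 2.84 in the C libraries, with L3 only just above C1.

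The mural cells and the endothelium followed. Myh11 (ENSMUSG00000018830, chromosome 16, 14194535 to 14291372, minus strand), the myosin heavy chain of contractile smooth muscle, stood at 6.09, 6.34 and 6.43 FPKM in the L libraries and 4.002, 2.405 and 3.57 in the C libraries. The L libraries agreed within 6.09 to 6.43 FPKM, above every C library, a difference of 0.77 ± 0.17. In H the values were 4.61, 3.83 and 3.26 FPKM. Vtn, a plasma and pericyte adhesion protein, stood at 34.8, 48.3 and 38.2 FPKM in the L libraries and 33.9, 30.6 and 21.7 in the C libraries, with L1 only just above C1. Bcam (ENSMUSG00000002980, chromosome 7, 19756131 to 19771016, minus strand), a laminin receptor of endothelium and mural cells, stood at 7.97, 7.05 and 8.19 FPKM in the L libraries and 5.17, 5.55 and 3.905 in the C libraries, a difference of 0.58 ± 0.16. Vwf, the platelet adhesion protein stored in endothelium, stood at 4.44, 2.62 and 2.56 FPKM in the L libraries and 1.81, 1.77 and 1.95 in the C libraries, a difference of 0.54 ± 0.20, or 0.34 without L1. In Ptprb, the vascular receptor tyrosine phosphatase, the groups overlapped (difference 0.30 ± 0.15). Over the lists, 8 of 9 endothelial genes (median 0.30) and 4 of 5 smooth muscle and pericyte genes (median 0.19) had higher means. Without L1 these medians were 0.12 and 0.11. With quantile normalization they were 0.22 and 0.07, with 7 endothelial and 3 smooth muscle and pericyte genes higher. The mean level of the endothelial list was 0.15, 0.06 and 0.13 in the L libraries and -0.14, -0.04 and -0.08 in the C libraries, and that of the smooth muscle list 0.14, 0.20 and 0.16 in the L libraries and 0.04, -0.15 and -0.29 in the C libraries. Both separated the groups, as did 5 more of the 48 lists with at least 5 tested genes, all 7 higher in L. These 5 were the matrix, lysosome, neurodegeneration, cytoskeleton and endoplasmic reticulum chaperone lists. Random ordering alone gives a share of 0.1 of lists without overlap, and some lists share genes. The endoplasmic reticulum chaperone list had a median of -0.01 with quantile normalization, and the neurodegeneration list -0.01 with median of ratios scaling. For the cytoskeleton list it was -0.01 without C1 and L3. Whether the 7 lists stay apart under other scalings was not tested. In bulk tissue a change in the number of cells of a type and one in the RNA per cell cannot be told apart.

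Meningeal and fibroblast markers had the highest median of these lists, 0.60, with all 11 tested members higher in mean. With quantile normalization 9 of them were higher. Col1a1, the main fibrillar collagen, stood at 1.003, 1.501 and 1.04 FPKM in the L libraries and 0.648, 0.791 and 0.406 in the C libraries. The level was low, and every L library exceeded every C library. The mean level of the list was 0.26, 0.81 and -0.02 in the L libraries and 0.01, -0.18 and -0.58 in the C libraries, with L2 highest, C3 lowest and L3 below C1. The median was 0.34 without C3 and 0.82 without C1. Of these 11 genes 6 also stand in the matrix list, among them Fbln1, Col1a1 and Vtn, and 1 of them, Vtn, in the smooth muscle list. The other 26 matrix genes had 19 higher means at a median of 0.19, and the other 4 smooth muscle genes 3 at a median of 0.15. The summed level of the meningeal markers was 305 to 736 FPKM over 12 markers in L libraries, against 129 to 334 in C libraries. The part of meningeal tissue in these differences was not tested.

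Astrocyte and microglia lists also leaned higher, and the oligodendrocyte list did not. All 10 reactive astrocyte genes had higher means (median 0.39), but the median was 0.15 without C1 and L3, and L3 alone held the highest level of the list. Hspb1, a small heat shock protein, stood at 4.26, 4.36 and 9.78 FPKM in the L libraries and 3.05, 2.22 and 2.08 in the C libraries, a difference of 0.97 ± 0.30, or 0.63 without L3. The iron oxidase gene Cp stood at 2.96, 2.702 and 2.96 FPKM in the L libraries and 2.64, 1.47 and 1.58 in the C libraries, a difference of 0.44 ± 0.19. Gfap, the astrocyte filament, stood at 63.1, 69.96 and 154 FPKM in the L libraries and 60.8, 54.3 and 99.3 in the C libraries, with L3 highest and C3 second, and its direction turned without L3. Of 9 general astrocyte genes, 6 had higher means (median 0.23, or -0.05 without L3). They include the neurotensin receptor Ntsr2 (0.27 ± 0.19), with Dio2 on the lower side. Of 5 oligodendrocyte and myelin genes 2 had higher means (median -0.04, from -0.45 without L3 to 0.29 without L2). Without C1 and L3 0 of them did, at a median of -0.48.

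All 11 tested genes of disease-associated microglia had higher means (median 0.29, or 0.17 without L3 and 0.12 without C1 and L3, with 9 higher). Apoe, the main lipid carrier of the brain, stood at 669, 464 and 500.0 FPKM in the L libraries and 417, 433 and 365 in the C libraries. L1 was highest by far, every L library exceeded every C library, and the difference was 0.41 ± 0.19, or 0.25 without L1. Ccl6, a microglial chemokine, stood at 2.58, 2.03 and 2.004 FPKM in the L libraries and 1.33, 1.33 and 1.52 in the C libraries. Lgals9, a secreted galectin of immune regulation, stood at 4.96, 4.02 and 6.197 FPKM in the L libraries and 2.24, 3.11 and 3.47 in the C libraries, a difference of 0.62 ± 0.18, or 0.35 without C1 and L3. Homeostatic microglia genes were higher in 4 of 5 (median 0.18), but their median was -0.06 without C1. Among them the TGF-beta receptor Tgfbr1 stood at 5.301, 6.18 and 5.53 FPKM in the L libraries and 3.34, 4.799 and 4.53 in the C libraries, and the groups of Fcrls, an Fc-receptor-like gene, and of the phagocytic receptor Mertk overlapped, with differences of 0.46 and -0.24. Of 16 complement, cytokine and interferon genes 12 had higher means, at a median of 0.11, from 0.05 without L3 to 0.22 without L2. With quantile normalization 8 of them were higher, at a median of 0.02. The inhibitor of NF-kappaB, Nfkbia, stood at 19.1, 13.6 and 14.3 FPKM in the L libraries and 8.03, 15.2 and 8.85 in the C libraries, so that C2 exceeded L2 and L3. Pgf, a ligand of the VEGF receptor FLT1, stood at 1.16, 1.57 and 2.63 FPKM in the L libraries and 0.803, 0.697 and 0.426 in the C libraries, a difference of 0.73 ± 0.22.

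Tested members of the hypothalamic list mostly had higher means in L, with the highest level in L1. Of 6 tested hypothalamic markers 5 had higher means (median 1.05, or 0.67 without L1 and 1.15 without C1 and L3). Among the list's genes under the filter, Nkx2-1, Pomc, Agrp, Lhx9, Tbx3 and Sim1 did not separate the groups. Esr1, also under the filter, lay higher in every L library. Hap1, the huntingtin-associated transport adaptor, stood at 132, 45.2 and 48.5 FPKM in the L libraries and 28.99, 17.5 and 28.5 in the C libraries, a difference of 1.41 ± 0.47, or 0.91 without L1. Ahi1, its binding partner in hypothalamic neurons, stood at 96.6, 34.7 and 51.4 FPKM in the L libraries and 25.1, 21.3 and 29.03 in the C libraries, a difference of 1.13 ± 0.37, or 0.74 without L1. In both genes L1 was 2 to 3 times as high as L2, yet every L library exceeded every C library. Trh, the releasing hormone of the thyroid axis, stood at 29.1, 1.59 and 5.32 FPKM in the L libraries and 1.77, 1.69 and 0.987 in the C libraries, and Nts, the peptide neurotensin, at 26.7, 5.29 and 3.84 FPKM in the L libraries and 0.654, 0.291 and 4.796 in the C libraries. For these peptides L1 was highest and the groups overlapped. Chga, a granin of dense-core vesicles, also overlapped (difference 0.46 ± 0.24). Over 6 neuropeptide and granin genes 4 had higher means (median 0.71, from 0.36 without C1 to 1.04 without C2). The mean level of hypothalamic markers was 1.51, -0.33 and 0.33 in the L libraries and -0.02, -0.69 and -0.50 in the C libraries, and of 7 thalamic, midbrain and hindbrain markers 0.39, -0.87 and 1.86 in the L libraries and 0.67, -0.96 and -0.88 in the C libraries. The part of regional tissue content in these differences was not tested. Among monoamine genes, Th and Ddc, enzymes of dopamine synthesis, stood at 6.71, 0.296 and 7.61 FPKM in the L libraries and 3.45, 0.878 and 0.578 in the C libraries, and at 5.14, 1.502 and 6.01 FPKM in the L libraries and 1.83, 2.55 and 1.79 in the C libraries. Both were high in L1 and L3 and low in L2, and 4 of 5 genes of the list had higher means (median 0.65, or 0.37 without L3).

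Subunits of inhibitory receptors had no common direction. Gabrg1, a gamma subunit of GABA-A receptors, stood at 7.25, 3.05 and 4.85 FPKM in the L libraries and 2.03, 2.51 and 2.19 in the C libraries, a difference of 0.84 ± 0.30. Glra2, a glycine receptor subunit, had a difference of 0.87 ± 0.35 with overlap. Of 8 such genes 5 had higher means (median 0.39, or 0.00 without C3). Their mean level was 0.33, -0.33 and 0.63 in the L libraries and 0.66, -0.47 and -0.56 in the C libraries. Gabra6, the cerebellar granule cell subunit, stood at 14.8, 0.0603 and 55.02 FPKM in the L libraries and 254, 0 and 0 in the C libraries. The part of regional tissue content in these levels was not tested.

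Glutamate receptor and calcium signalling genes leaned lower. Of 13 glutamate receptor genes 10 had lower means (median -0.20, or -0.03 without L3), none without overlap. The AMPA receptor subunit Gria3 had a difference of -0.38 ± 0.30, its auxiliary subunit Cacng2 -0.37 ± 0.33, and the NMDA receptor subunit Grin2d, on the other side, 0.69 ± 0.34. Of 14 calcium signalling genes 10 had lower means (median -0.11, from -0.26 without C1 to -0.01 without C2). Cacnb4, a beta subunit of voltage-gated calcium channels, stood at 10.9, 15.1 and 10.6 FPKM in the L libraries and 34.6, 18.4 and 16.3 in the C libraries, a difference of -0.81 ± 0.26, or -0.49 without C1, which was the highest library. The L-type channel Cacna1d and the calcium pump Atp2b1 overlapped, with differences of -0.25 and -0.51. Pnck, a calmodulin-dependent kinase, went the other way at 37.8, 31.4 and 18.6 FPKM in the L libraries and 13.9, 18.5 and 13.99 in the C libraries, with L3 only just above C2. Among 17 synaptic vesicle genes 9 had higher means (median 0.02, or -0.02 with median of ratios scaling). There Cadps2, a priming factor of dense-core vesicles, stood at 10.4, 13.2 and 11.7 FPKM in the L libraries and 31.6, 21.3 and 12.98 in the C libraries, and L2 lay above C3. The fusion factor Napa stood at 50.98, 50.1 and 54.4 FPKM in the L libraries and 56.99, 64.8 and 57.9 in the C libraries, a difference of -0.20 ± 0.12. Stx1a, a synaptic membrane protein, stood at 27.1, 73.7 and 3.35 FPKM in the L libraries and 1.11, 92.3 and 82.7 in the C libraries. Adora2a, the striatal adenosine receptor, stood at 26.4, 0.425 and 0.5696 FPKM in the L libraries and 0.362, 12.7 and 10.96 in the C libraries. Both varied far more within the groups than between them. The immediate early gene Fos stood at 4.56, 6.61 and 3.55 FPKM in the L libraries and 4.48, 8.19 and 7.33 in the C libraries, with overlap.

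In insulin and IGF signalling the receptor and kinases lay lower and an adaptor higher. Akt2 (ENSMUSG00000004056, chromosome 7, 27591552 to 27640826, plus strand), the kinase that carries the insulin signal to glucose uptake, stood at 11.2, 9.83 and 9.52 FPKM in the L libraries and 17.2, 13.8 and 13.6 in the C libraries, a difference of -0.50 ± 0.14 and of -0.36 without C1 and L3. In H it stood at 8.92, 10.5 and 11.5 FPKM. Igf1r, the IGF1 receptor, stood at 6.95, 5.899 and 7.53 FPKM in the L libraries and 10.2, 7.899 and 8.47 in the C libraries, a difference of -0.34 ± 0.13. Rps6kb1, the S6 kinase of the mTOR pathway, stood at 4.26, 4.44 and 4.26 FPKM in the L libraries and 9.09, 4.898 and 5.305 in the C libraries, a difference of -0.44 ± 0.20, or -0.20 without C1. In these genes C1 was the highest library and every C library exceeded every L library. Grb10, an adaptor that dampens the insulin and IGF1 receptors, stood at 18.9, 8.505 and 15.2 FPKM in the L libraries and 8.58, 6.05 and 7.84 in the C libraries, with L2 below C1, a difference of 0.79 ± 0.27. Over 13 genes of the list 9 had lower means, at a median of -0.03, and the median was 0.08 without C1 and L3.

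Hormone and clock genes also leaned lower. Dio2, the deiodinase that makes active thyroid hormone, stood at 4.96, 6.999 and 4.95 FPKM in the L libraries and 6.78, 8.29 and 8.66 in the C libraries. L2 lay just above C1, and the difference was -0.43 ± 0.16. Ncor1, a corepressor of thyroid hormone and other nuclear receptors, had means of 19.8 ± 2.697 FPKM over the L and 27.2 ± 5.48 over the C libraries (SD, n = 3 each). Its highest L library and its lowest C library were nearly equal, and the difference was -0.43 ± 0.18, or -0.19 without C1 and L3. Rxra, the shared partner of these receptors, had a higher mean (0.46 ± 0.21, with overlap). Of 12 thyroid and steroid hormone genes 8 had lower means (median -0.17, from -0.28 without C2 to -0.10 without C1). All 4 tested clock genes had lower means in L (median -0.35, or -0.20 without C1 and L3). Hlf, a clock-controlled transcription factor, stood at 36.1, 50.9 and 30.7 FPKM in the L libraries and 49.4, 71.7 and 69.2 in the C libraries, a difference of -0.69 ± 0.25, and L2 lay above C1. The others, named after their values were seen, were Nr1d1 (-0.42), Per1 (-0.28) and Cry1 (-0.07), all with overlap.

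PPAR targets split evenly between the directions. Of 12 tested genes of fatty acid oxidation and other PPAR alpha targets 6 had higher and 6 lower means, at a median of 0.03, or -0.02 with median of ratios scaling. Angptl4 (ENSMUSG00000002289, chromosome 17, 33773750 to 33781830, minus strand), a secreted inhibitor of lipoprotein lipase, stood at 3.38, 1.03 and 2.12 FPKM in the L libraries and 0.625, 0.806 and 0.698 in the C libraries. The C libraries lay together, L1 was highest, and the difference was 0.83 ± 0.27, or 0.56 without L1. In H it stood at 2.14, 1.702 and 1.16 FPKM. Pparg itself stood at 0.372, 0.847 and 0.683 FPKM in the L libraries and 1.22, 1.21 and 1.102 in the C libraries, lower in every L library at levels near 1 FPKM. Pdk4, which shuts off pyruvate oxidation, and Plin4, a lipid droplet coat protein, overlapped, with differences of 0.22 ± 0.22 and -0.28 ± 0.28. Fatty acid and sterol synthesis genes had higher means in 10 of 13 (median 0.18, or 0.05 without L3). The sterol demethylase gene Cyp51 stood at 15.9, 16.6 and 25.7 FPKM in the L libraries and 11.02, 15.6 and 15.4 in the C libraries, and ATP citrate lyase, Acly, at 60.4, 41.9 and 105 FPKM in the L libraries and 45.99, 43.1 and 43.7 in the C libraries. L3 was the highest library in both. The sterol regulator Srebf1 had a difference of 0.33 ± 0.25. Lipoprotein and sterol transport genes split into 5 higher and 5 lower (median 0.03, or -0.02 with median of ratios scaling), with Apoe on the higher and Osbp2 on the lower side and Npc2, a lysosomal cholesterol carrier, at 0.29 ± 0.24.

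Genes of protein upkeep and oxidative defence had small, mostly higher differences. Pfdn2, a prefoldin subunit that hands new proteins to the chaperonin, stood at 42.8, 43.4 and 46.4 FPKM in the L libraries and 27.1, 37.8 and 31.4 in the C libraries, a difference of 0.46 ± 0.14. Cct3, a subunit of that chaperonin, stood at 18.95, 18.5 and 18.8 FPKM in the L libraries and 14.3, 17.1 and 13.2 in the C libraries, with the L libraries almost equal, and a difference of 0.32 ± 0.14. Cacybp, an adaptor of ubiquitin ligases, stood at 24.2, 25.6 and 32.4 FPKM in the L libraries and 20.3, 16.96 and 20.8 in the C libraries, a difference of 0.48 ± 0.14. Of 14 chaperone genes 12 had higher means (median 0.12, or 0.02 without L2), and 9 with median of ratios scaling. All 13 proteasome genes had higher means (median 0.21, from 0.12 without L2 to 0.31 without C2), and 12 with the length trend removed. Psma6, a subunit of the catalytic core, stood at 72.5, 68.5 and 70 FPKM in the L libraries and 56.8, 67.6 and 47.1 in the C libraries, with L2 only just above C2. All 13 cytosolic ribosomal protein genes had higher means too (median 0.25, from 0.13 without L2 to 0.49 without C2), 12 with the length trend removed, and none stood without overlap. Rps15a, Rpl10 and Rpl19 had differences of 0.25, 0.46 and 0.25. Such genes have many near-identical pseudogenes, so their values are uncertain. Of 19 respiratory chain genes all had higher means (median 0.12, or -0.01 without L2 and 0.35 without C2), but 10 with the length trend removed, where Ndufa12 of complex I turned direction. Cox5a, a subunit of cytochrome c oxidase, stood at 9.37, 8.47 and 7.704 FPKM in the L libraries and 7.32, 7.29 and 7.15 in the C libraries, and Sdhb of complex II had a difference of 0.26 ± 0.23.

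Of 15 NRF2 and oxidative defence genes 13 had higher means (median 0.13, or 0.05 without C1), and 9 with the length trend removed. Besides Mafk, the haem-degrading enzyme Hmox1 stood at 3.45, 3.398 and 6.19 FPKM in the L libraries and 3.13, 2.93 and 3.01 in the C libraries. L3 was far the highest, and L1 and L2 lay just above C. Gpx3, a secreted glutathione peroxidase, had the second largest difference of all named genes, 1.96 ± 0.80, at 47.9, 5.02 and 46.9 FPKM in the L libraries and 9.42, 2.95 and 4.77 in the C libraries. L1 and L3 were about 5 times as high as C1 and L2 lay below it, so the groups overlapped. Lysosome and autophagy genes had higher means in 23 of 26 (median 0.12, or 0.08 without C1), and 17 with quantile normalization. The lysosomal enzymes Man2b1 and Ctsd and the autophagy protein Gabarap had differences of 0.22, 0.24 and 0.24, all with overlap.

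Lists of regulators of RNA, chromatin and development had medians of -0.11 to 0.08, beside 0.03 for all tested genes. Of 29 RNA splicing and binding genes 19 had lower means (median -0.11), but without C1 and L3 the median was 0.13 and 22 were higher. Besides Rbfox1, the neuronal RNA-binding protein Elavl2 had a difference of 0.64 ± 0.29, and the spliceosome core protein Snrpd1 0.20 ± 0.13. Prkra, an activator of the kinase PKR and partner of Dicer, stood at 8.9, 8.65 and 11.3 FPKM in the L libraries and 8.04, 6.22 and 3.91 in the C libraries, a difference of 0.63 ± 0.25, or 0.39 without C3. Of 23 chromatin and methyltransferase genes 10 had higher and 13 lower means (median -0.02, or 0.17 without C1 and L3), with Prmt2 the only member at an unadjusted p under 0.05. The remodeller Chd3 and the deacetylase Hdac5 had differences of 0.56 ± 0.37 and 0.17 ± 0.12. In the Wnt and Notch list 13 of 22 had higher means (median 0.08, or -0.01 without L1). There Dll1, a Notch ligand, stood at 1.99, 1.62 and 1.38 FPKM in the L libraries and 0.884, 0.997 and 0.879 in the C libraries, a difference of 0.47 ± 0.18, and Mfng, which glycosylates Notch, at 1.31, 1.004 and 1.08 FPKM in the L libraries and 0.841, 0.823 and 0.642 in the C libraries. Both lay higher in every L library at levels near 1 FPKM, while Numb lay lower. St3gal1, a sialyltransferase, stood at 5.58, 7.63 and 7.31 FPKM in the L libraries and 2.13, 3.89 and 5.27 in the C libraries, with C1 lowest, and the membrane protein Plxdc1 at 4.97, 7.55 and 6.25 FPKM in the L libraries and 15.4, 8.72 and 9.13 in the C libraries, with C1 highest. Plekho1, an adaptor that binds casein kinase, had a difference of -0.43 ± 0.22, or -0.17 without C1.

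**Figure D4:**
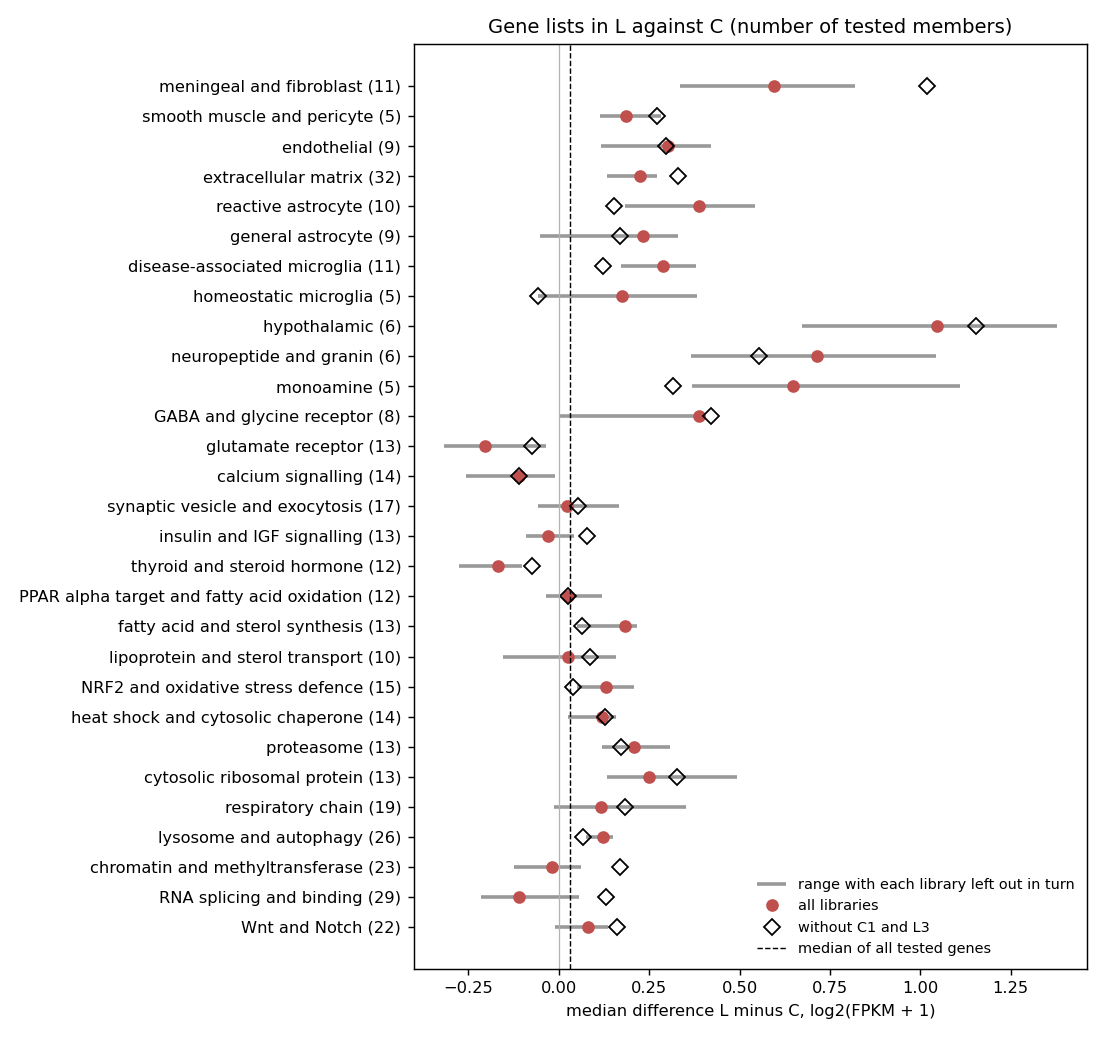
Median difference of L minus C over the tested members of 29 gene lists, on the scale of log2(FPKM + 1), with red points for all libraries, grey lines for the range when each library is left out in turn, open diamonds for the fit without C1 and L3 and a dashed line for the median of all tested genes, 0.03. Vessel, matrix and hypothalamic lists stay above 0 in each of these fits. So do others, such as the proteasome, cytosolic ribosomal protein, reactive astrocyte and lysosome lists. The RNA splicing and insulin lists change side without C1 and L3.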

How the data were processed

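Messenger RNA of 9 mouse brain libraries, 3 each in groups L, H and C, was sequenced. The authors deposited FPKM values per gene and library with gene lengths, per the file headers. GRCm38 is the genome build per the submitters' processing notes. Which aligner and counter were used is not given in the sources used here. Since only 20 of 2996 genes had the coordinates of GENCODE M21, those printed were looked up in M21 by Ensembl identifier. FPKM times length gave whole multiples of 1 read within 0.01 reads for 100% of values, which gave library totals. The strand handling of the counting is not given, so genes that overlap on opposite strands, such as Pfdn2 over 27.6% and Cacnb4 over 16.0% of their exonic bases, may hold reads of their neighbour.

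Values were transformed to log2(FPKM + 1) and fitted with limma 3.58.1 under R 4.3.3 (trend, robust moderation, 3 groups, 9 libraries, 6 residual degrees of freedom), with two-sided p-values adjusted by the Benjamini-Hochberg method over 2226 genes and a threshold of 0.05. An exact permutation test of 3 libraries against 3 cannot go below 0.1. The design, members, lists and rules were chosen with earlier results of these data known. Named were the 15 smallest p-values in each direction, the 10 largest differences without overlap at a mean of at least 5 FPKM, the 3 smallest p-values in each list described with genes, and 9 genes always named. Some genes under these rules are not reported here. Of 56 lists, 54 held a tested gene. Tested on simulated data with 200 of 2226 genes changed at a dispersion of 0.02, the fit of L against C recovered 63.1% at 1.5-fold, 99.5% at 2-fold and 100% at 4-fold, and called 0.454% of unchanged genes. The simulation gave an unchanged gene the same mean in all 9 libraries, without the differences in regional markers seen here. These rates thus do not give the power in the real libraries. Alternatives covered the pseudocount, the filter, scaling, limma-voom on the recovered reads, the libraries in the fit, a replicate block, a regional covariate and the gene length trend. Python 3.11.15, pandas 2.3.3 and matplotlib 3.10.9 were used.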

Additional observations from a re-analysis of the deposited data

How the results depend on the processing

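No alternative called a gene at an adjusted p under 0.05 in limma. The lowest adjusted p was 0.185, with the regional marker covariate, which takes the difference of cerebellar and pallial marker levels as a term. At an unadjusted p under 0.05 in limma that covariate gave 182 genes, against 87 of 2226 in the main fit. With no filter it was 138 of 2912 tested genes. A fit of L and C alone gave 55, since fewer libraries give the spread. Leaving out 1 library gave 45 to 161. Without overlap stood 697 genes without C1 and L3, since only 2 libraries a group are left, and 148 to 456 with 1 library left out. Limma-voom on the recovered reads gave 77 genes, or 109 with quality weights. A fit with the replicate number as a block gave 73. The labels do not say whether the numbers pair the samples. Deviations from the group means correlated by -0.15, 0.68 and -0.51 between L and C libraries of the same number. These values cannot show whether the samples are paired, since regional marker levels differ strongly between single libraries.

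Of 105 genes under the naming rules 97 kept their direction in all 24 alternatives, among them all 30 genes with the smallest p-values. Genes without overlap cannot turn when L or C libraries are left out, and the small p-values come from these same libraries. The other named genes turned as follows, and the cause was not tested. Without C1 and L3 the difference was -0.0572 for Fcrls, -0.14 for Gfap and -0.000405 for Pdk4. With 1 library left out in turn it ranged from -0.0565 without C1 to 0.86 without C2 for Fcrls, from -0.54 without L1 to 0.0178 without L2 for Plin4, and from -0.0527 without L3 to 0.61 without C3 for Gfap. For the regional genes it ranged from -2.02 without L1 to 0.11 without L2 for Adora2a, from -0.70 without C2 to 3.29 without C1 for Gabra6, and from -2.08 without C1 to 0.85 without L3 for Stx1a. With quality weights Gfap was at -0.00938, and with the length trend removed Ndufa12 at -0.0144. With 1 L or C library left out, the difference moved by over 1.5 times in 61 of the 105 genes and in 6 of the 30, and the median in all 48 lists. Without C1 and L3 this held for 30 and 4 genes and 33 lists. The median changed sign in at least 1 alternative in 24 of 48 lists. With 3 libraries a group, differences under about 1.36-fold lie within the median confidence interval, and neither depth nor the labels tell regional content from exposure.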

Other observations

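Some gene groups outside the account above are given by their counts, beside 56.3% of all tested genes with a higher mean in L. None held a gene at an adjusted p under 0.05 in limma. Of 20 neurotrophin and MAPK signalling genes 14 had lower means in L (median -0.03), but without C1 and L3 14 had higher means (median 0.06), and without C1 the median was 0.04. Of 9 immediate early genes 7 had lower means (median -0.11, or 0.00 without C2). Of 23 glycolysis and TCA cycle genes 16 had higher means (median 0.16, or 0.09 without C3 and 0.09 without C1 and L3). Of 29 cytoskeleton and motor genes 18 did (median 0.09), a share near that of all tested genes, and 14 did without C1 and L3 (median -0.01). Oligodendrocyte and myelin genes, 5 tested, had mean levels of -0.17, -0.81 and 0.86 in the L libraries and 0.14, 0.05 and -0.09 in the C libraries. L3 was highest and L2 lowest of the 6 libraries. Prg4, the lubricating proteoglycan of joints and serous surfaces, chosen after its values were seen, stood at 4.39, 4.93 and 4.18 FPKM in the L libraries and 2.87, 1.88 and 0.775 in the C libraries, above C in every L library.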
